A study of Bos taurus with 52 samples.

Results

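The genes described here are 36 enzymes and transporters of glucose breakdown, chosen by name as the glycolytic steps, the lactate dehydrogenases and lactate transporters, the entry into the mitochondrion and the citric acid cycle. All 36 were found among the 31651 named genes of the count table. They fall into 19 genes of glycolysis and lactate handling, 5 genes of the pyruvate dehydrogenase step and 12 genes of the citric acid cycle.

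Glycolysis splits glucose into pyruvate in the cytosol, and most of its steps are served by several isoenzymes that differ between tissues. Lactate dehydrogenase turns pyruvate into lactate and back, and the monocarboxylate transporters carry lactate across the cell membrane. Pyruvate that enters the mitochondrion is turned into acetyl-CoA by pyruvate dehydrogenase, which its kinases switch off, and acetyl-CoA is oxidised in the citric acid cycle. Around implantation the ruminant conceptus elongates while it is bathed in glucose, fructose and amino acids that the uterine lining supplies.

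RNA sequencing was carried out on bovine endometrium, the lining of the uterus, and on conceptuses, the embryo with its membranes, of heifers sorted into a high-fertile (HF), a subfertile (SF) and an infertile (IF) class. Endometrium came from 5 animals in each of 5 groups, non-pregnant (NP) heifers of every class (NP-HF, NP-SF and NP-IF) and pregnant (P) heifers of the classes HF and SF (P-HF and P-SF). Pregnancy was at day 17. For the non-pregnant animals no day is given in the sources. Conceptuses of the same day numbered 10 in the SF class and 17 in the HF class, the latter labelled by size as long (10) or short (7). Where a length was given it was 1.5 to about 14 cm in 9 SF conceptuses, 9 to 17 cm in 5 long HF ones and 1.2 to 6.9 cm in 6 short HF ones. No genotype, transgene or drug treatment separates the groups. By the sample titles the 27 conceptuses came from 19 recipients, 8 of which gave 2, so that conceptuses are not all independent animals.

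Endometrial libraries held 17.1 to 27.3 M counted reads and conceptus libraries 20.5 to 47 M. The lowest count of any of the 36 genes in any endometrial library was 61 reads, for SLC16A3. In conceptuses the lowest was 87 reads, for ALDOC, once ENO2, PDK2 and PDK4 are set aside. The summed level of 9 trophectoderm markers was 287 to 442 normalised counts (CPM, reads scaled to library size) in endometrium and 9180 to 32000 CPM in conceptuses, and that of 8 stromal markers was 5220 to 24600 CPM in endometrium and 3.44 to 106 CPM in conceptuses, as the tissue labels say. P-SF replicate 5 stood apart from the other P-SF libraries in 6 of the 36 genes, and it and P-HF replicate 1 were known from earlier results of these data to lie near the other fertility class. Results that rest on them are therefore also given without them.

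The first comparison asked what differed with pregnancy in HF endometrium. Of the 36 genes, 10 passed the test in P-HF against NP-HF, 4 higher and 6 lower. Phosphofructokinase, the committed step of glycolysis, differed by isoenzyme, with PFKP higher and PFKM lower. Phosphoglycerate kinase PGK1, aldolase ALDOA and malate dehydrogenase MDH2 were higher. Both lactate dehydrogenase subunits, LDHA and LDHB, the kinases PDK1 and PDK2 and the aldolase ALDOC were lower. Here and below, called means an adjusted p below 0.05 by edgeR (quasi-likelihood test, Benjamini-Hochberg over all genes tested). In this comparison 20.8% of the 19606 genes tested were called, 10.2% higher and 10.6% lower, against 27.8% of the 36. The median log2 fold change of the 36 was 0.13, and that of all genes tested was -0.01. In bulk tissue fewer cells of a type and less RNA per cell cannot be told apart.

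**Figure D1:**
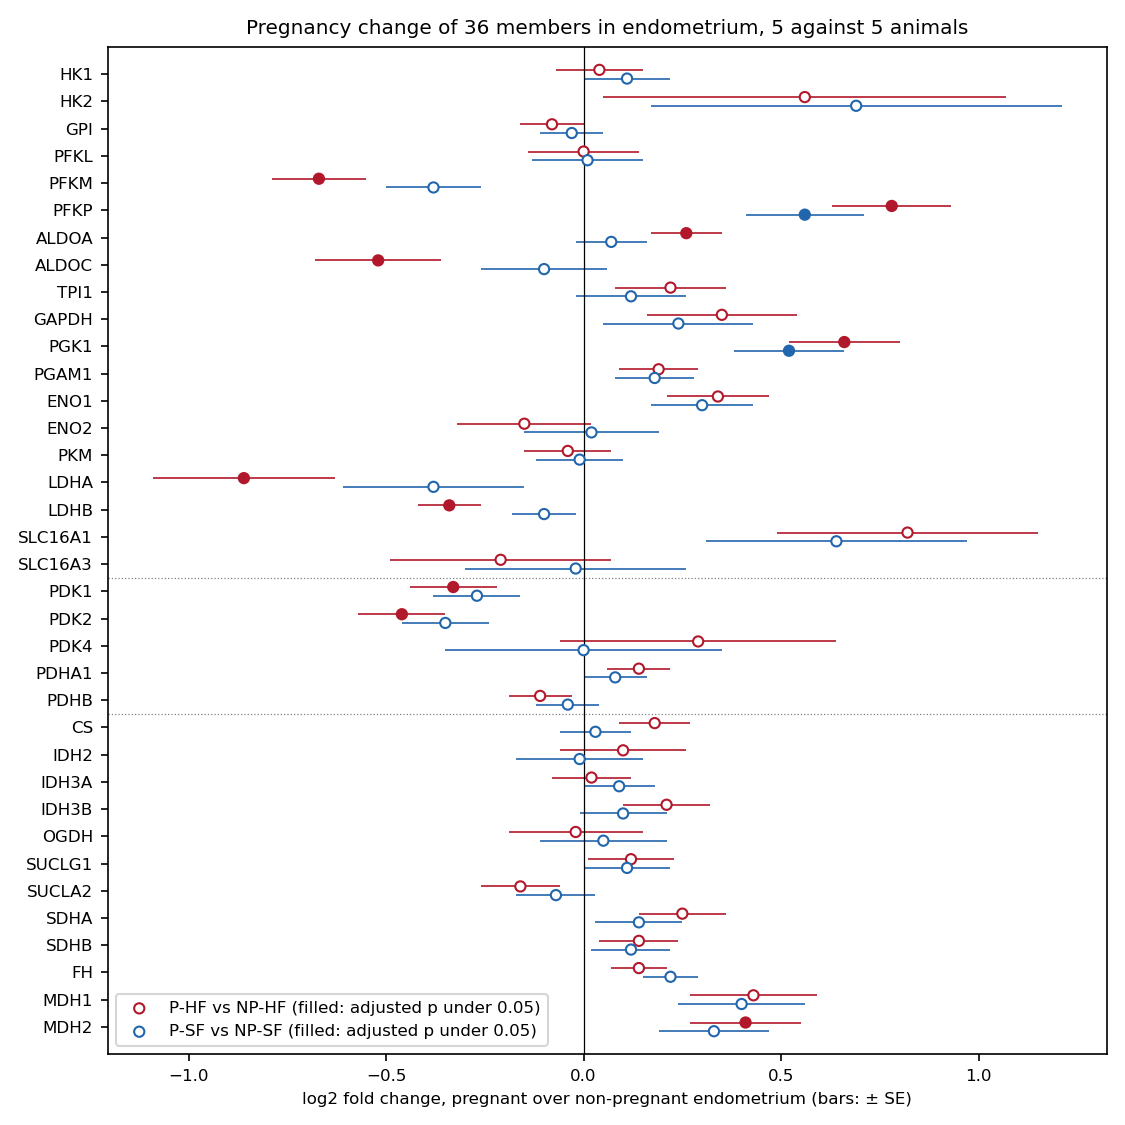
Log2 fold change (horizontal axis, bars ± SE) of the 36 genes in pregnant over non-pregnant endometrium, HF in red and SF in blue, 5 against 5 animals each. Filled points have an adjusted p under 0.05: 10 in HF and 2 in SF, and the dotted lines part glycolysis, the pyruvate dehydrogenase step and the citric acid cycle.

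The first steps of glycolysis gave opposite changes within 1 enzyme. PFKP, the platelet-type phosphofructokinase, stood at 32.6, 29.6, 23.6, 27.6 and 27.1 CPM in the NP-HF animals and at 35.9, 43.4, 56.2, 46.2 and 62.7 CPM in the P-HF animals. Every P-HF animal was above every NP-HF animal. The log2 fold change was 0.78 ± 0.15 (SE, n = 5 against 5; edgeR adjusted p = 0.00062), a 1.72-fold rise.

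PFKM, the muscle-type phosphofructokinase, went the other way. Its NP-HF values were 20.3, 29.7, 24.4, 25.7 and 21.6 CPM and its P-HF values were 15.3, 14.4, 16.2, 15.5 and 16.1 CPM. All P-HF animals lay below all NP-HF animals, within a narrow band (15.5 CPM ± 0.712, SD, n = 5). The log2 fold change was -0.67 ± 0.12 (edgeR adjusted p = 0.00031). PFKL, the liver-type form, had a log2 fold change of 0.00 ± 0.14. The log2 ratio of PFKP to PFKM counts within a library was 0.21 ± 0.30 (SD, n = 5; range -0.05 to 0.68) in NP-HF and 1.63 ± 0.28 (range 1.22 to 1.96) in P-HF. These ranges did not overlap, which follows from the values of the 2 genes above and adds no separate evidence. The size of a ratio within a library does not depend on how libraries are scaled.

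The other genes of upper glycolysis moved less. ALDOA, the main aldolase of muscle and many other tissues, was at 230, 200, 228, 212 and 211 CPM in NP-HF and at 233, 256, 312, 240 and 265 CPM in P-HF. The groups did not overlap, by a margin of a few CPM, and the log2 fold change was 0.26 ± 0.09 (edgeR adjusted p = 0.038). ALDOC, the brain-type aldolase, was lower at 7.75, 7.25, 5.15, 8.72 and 5.95 CPM in NP-HF against 4.79, 4.31, 6.28, 4.68 and 4.49 CPM in P-HF. Here P-HF replicate 3 lay among the NP-HF values, and the log2 fold change was -0.52 ± 0.16 (edgeR adjusted p = 0.027). HK1, the housekeeping hexokinase that traps glucose in the cell, gave 0.04 ± 0.11. HK2, the inducible hexokinase, gave 0.56 ± 0.51 with wide scatter, from 3.55 to 21.1 CPM in NP-HF and from 5.98 to 19.2 CPM in P-HF.

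In lower glycolysis PGK1, which makes the first ATP of the pathway, was the gene that passed. Its values were 93.5, 110, 111, 122 and 107 CPM in NP-HF and 141, 184, 226, 133 and 184 CPM in P-HF. No P-HF value fell within the NP-HF range, and the log2 fold change was 0.66 ± 0.14 (edgeR adjusted p = 0.0015), a 1.58-fold rise. The enolase ENO1 had a fold change of 0.34 ± 0.13 on the log2 scale (edgeR adjusted p = 0.062, 0.025 to 0.22 over 17 alternatives), and GAPDH one of 0.35 ± 0.19. Both had 1 high library, P-HF replicate 3, with ENO1 at 327 CPM against 199 to 251 CPM in the other P-HF animals. PKM, the last enzyme of glycolysis, gave -0.04 ± 0.11. The isomerases GPI and TPI1, the mutase PGAM1 and the enolase ENO2 were not called either, at -0.08, 0.22, 0.19 and -0.15. Reads of GAPDH, PGK1, LDHA, ENO1 and other members with close pseudogene copies could be assigned differently by another counter, so that their values are less certain.

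Lactate dehydrogenase was lower in both subunits. LDHA, the muscle-type subunit, was at 48.9, 41.0, 63.0, 34.4 and 31.3 CPM in NP-HF and at 27.6, 23.4, 23.0, 21.7 and 25.8 CPM in P-HF. All P-HF animals were below all NP-HF animals, and the NP-HF animals varied among themselves more than the P-HF animals (SD 12.7 against 2.38 CPM). The log2 fold change of -0.86 ± 0.23 (edgeR adjusted p = 0.0094) was the largest in size among the 36 genes. LDHB, the heart-type subunit, was at 142, 186, 161, 179 and 138 CPM in NP-HF and at 125, 120, 143, 130 and 126 CPM in P-HF. Only P-HF replicate 3 reached into the NP-HF range, and the log2 fold change was -0.34 ± 0.08 (edgeR adjusted p = 0.0045). SLC16A1, the monocarboxylate transporter MCT1, had a positive difference that did not pass, 0.82 ± 0.33 (edgeR adjusted p = 0.079, 0.019 to 0.23 over 17 alternatives), with 21.1 CPM ± 10.6 (SD, n = 5) in NP-HF and 37.7 CPM ± 17.5 in P-HF. SLC16A3, the transporter MCT4, gave -0.21 ± 0.28.

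At the pyruvate dehydrogenase step 2 of the 3 kinases among the genes chosen by name were lower. A further kinase, PDK3, belongs to the list of other genes of this step and was not called. PDK2 stood at 25.9, 19.7, 21.2, 22.4 and 25.2 CPM in NP-HF and at 18.2, 14.5, 19.8, 14.8 and 16.8 CPM in P-HF. P-HF replicate 3 was just above the lowest NP-HF animal, and all other P-HF animals were below the group. The log2 fold change was -0.46 ± 0.11 (edgeR adjusted p = 0.005). PDK1 was at 53.9, 57.1, 52.2, 58.8 and 64.1 CPM in NP-HF and at 56.9, 46.7, 37.6, 48.3 and 40.8 CPM in P-HF. P-HF replicate 1 lay inside the NP-HF range, and the log2 fold change was -0.33 ± 0.11 (edgeR adjusted p = 0.043). PDK4, the kinase induced by fasting and fatty acids, ranged from 116 to 413 CPM in NP-HF and from 235 to 478 CPM in P-HF, with a log2 fold change of 0.29 ± 0.35. The enzyme itself, PDHA1 at 0.14 ± 0.08 and PDHB at -0.11 ± 0.08, did not pass.

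Of the 12 citric acid cycle genes, MDH2 alone passed in this fit. MDH2, the mitochondrial malate dehydrogenase, was at 92.5, 90.3, 111, 120 and 88.7 CPM in NP-HF and at 109, 130, 194, 110 and 131 CPM in P-HF. The groups overlapped, P-HF replicate 3 was the highest, and the log2 fold change was 0.41 ± 0.14 (edgeR adjusted p = 0.038). Its cytosolic counterpart MDH1 had a value of 0.43 ± 0.16 on the same scale (edgeR adjusted p = 0.062, 0.012 to 0.31 over 17 alternatives). In all, 10 of the 12 had a positive log2 fold change, with a median of 0.14, and they ran from -0.16 for SUCLA2, a subunit of succinyl-CoA ligase, to 0.43 for MDH1. IDH2, IDH3A and OGDH, which release the carbon dioxide of the cycle or serve the same reaction, gave 0.10 ± 0.16, 0.02 ± 0.10 and -0.02 ± 0.17. CS, IDH3B, SUCLG1, SDHA, SDHB and FH lay between 0.12 and 0.25, and none of these 6 was called.

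**Figure D2:**
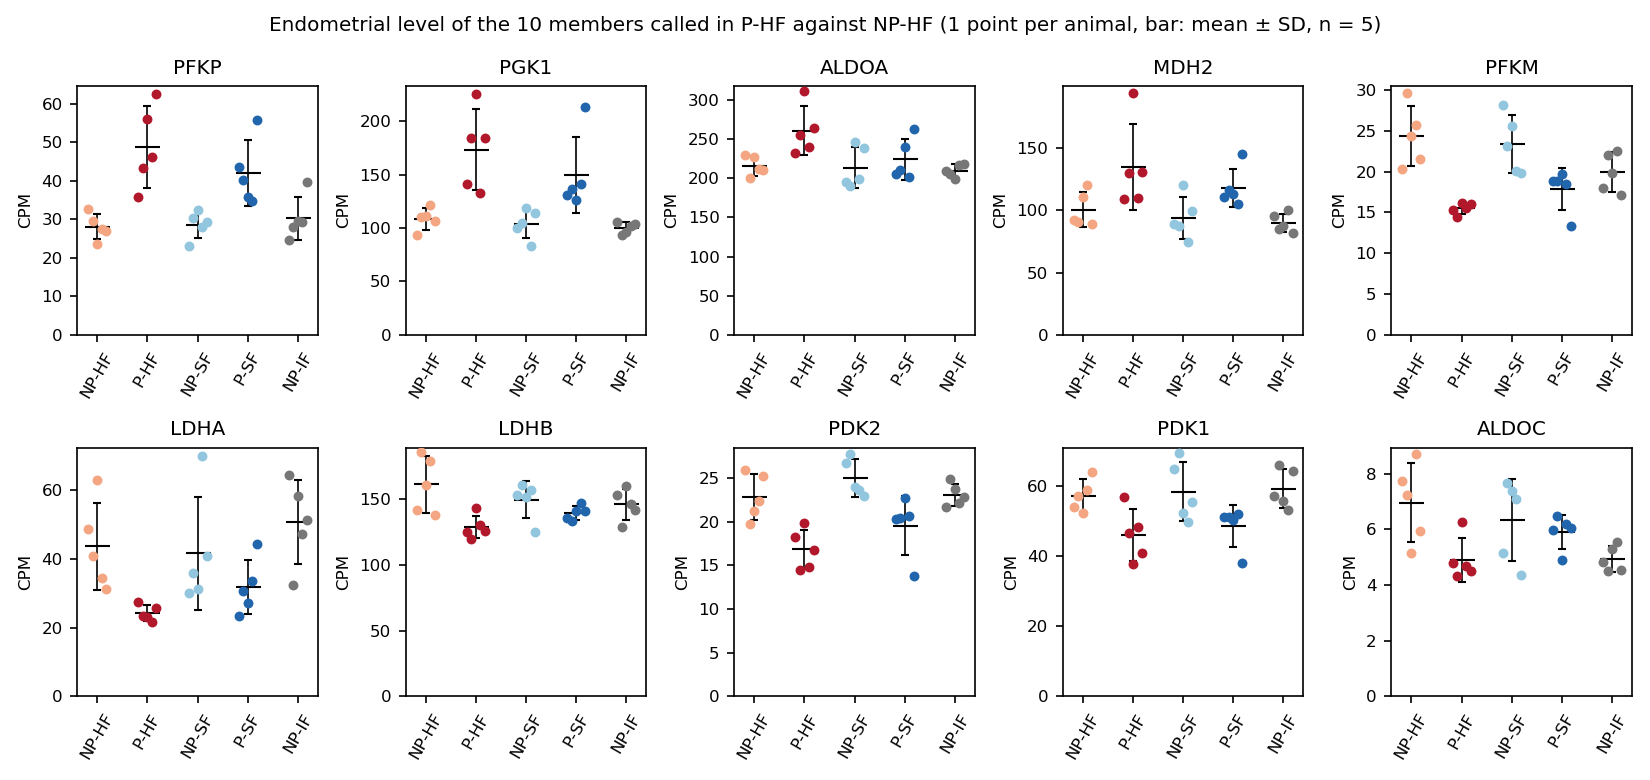
Level in CPM (vertical axis, from 0) of the 10 genes called in P-HF against NP-HF, 1 point per animal in each of the 5 endometrial groups, with mean ± SD (n = 5). P-HF animals lie wholly above NP-HF animals for PFKP, PGK1 and ALDOA and wholly below for PFKM and LDHA, and P-SF replicate 5 is the highest point of its group for PGK1 at 213 CPM.

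Groups did not overlap for 5 of the 36 genes (13.9%), namely PFKP, ALDOA, PGK1, PFKM and LDHA, against 12.1% of all genes tested. PFKM, PFKP, PGK1, LDHA, LDHB and PDK2 were called in each of the 17 alternatives run, which include leaving out each animal of the 2 groups. The other 4 calls depended on single animals. Without P-HF replicate 3, ALDOA had an adjusted p of 0.13 (0.014 to 0.13 over 17 alternatives), MDH2 0.17 (0.014 to 0.17) and PDK1 0.13 (0.0049 to 0.13). Leaving out NP-HF replicate 2, NP-HF replicate 5, P-HF replicate 2 or P-HF replicate 5 also ended the calls of ALDOA (0.099, 0.060, 0.059 and 0.066), of MDH2 (0.095, 0.082, 0.056 and 0.054) and of PDK1 (0.075, 0.11, 0.063 and 0.11). NP-HF replicate 4 ended ALDOA (0.070) and PDK1 (0.075), NP-HF replicate 1 ended MDH2 (0.083) and PDK1 (0.052), and P-HF replicate 4 ended PDK1 (0.057). ALDOC was lost without NP-HF replicate 1 (0.064), 2 (0.056) or 4 (0.083), or without P-HF replicate 2 (0.063), 4 (0.056) or 5 (0.063), with a range of 0.012 to 0.083.

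Markers of cell types moved in the same comparison. The summed level of the 8 stromal markers was 12800 to 24600 CPM in NP-HF and 5220 to 8540 CPM in P-HF, and 5 of the 8 (COL1A1, COL1A2, COL3A1, PDGFRB and VIM) were called lower. The summed level of the 8 epithelial markers was 981 to 1310 CPM in NP-HF and 1520 to 1840 CPM in P-HF, and 3 of the 8 (CDH1, CLDN3 and CLDN4) were called higher. Among 6 endothelial markers PECAM1 and TIE1 were lower, and among 6 immune markers CD68, AIF1 and CSF1R were higher. None of these markers was at 0 throughout a group. Their part in the result was not tested.

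Genes of the same pathways outside the 36 came from lists fixed by function. Among 23 tested genes of other glycolytic and gluconeogenic isoenzymes and regulators, 8 were higher and 0 lower in P-HF than in NP-HF. The share called was 34.8%, against 20.8% of all genes tested (10.2% higher and 10.6% lower). PCK2, the mitochondrial enzyme that makes phosphoenolpyruvate from oxaloacetate, was at 4.41 CPM ± 0.724 (SD, n = 5) in NP-HF and 14.1 CPM ± 2.26 in P-HF, a log2 fold change of 1.66 ± 0.19 (SE; edgeR adjusted p = 1.4e-06). PFKFB4, which makes and removes the activator of phosphofructokinase, gave 0.86 ± 0.19, and the ADP-dependent glucokinase ADPGK gave 0.53 ± 0.12. The median log2 fold change of the 23 was 0.09.

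Among 27 further genes of the pyruvate dehydrogenase step and the citric acid cycle, 5 were higher and 1 lower in P-HF. This was 22.2%, near the 20.8% of all genes tested. DLAT, a core subunit of pyruvate dehydrogenase, rose by 0.52 ± 0.15 on the log2 scale. Of 8 pentose phosphate genes, the transketolase TKT (0.65 ± 0.18) and the transaldolase TALDO1 (0.51 ± 0.16) were higher and H6PD (-0.31 ± 0.11) was lower. Of 25 hypoxia and MYC regulators, 3 were higher, EPAS1 (0.98 ± 0.28), MAX (0.52 ± 0.11) and BNIP3 (0.48 ± 0.11). The shares called in these 2 lists were 37.5% and 12%.

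The next comparison asked the same of SF endometrium. PFKP and PGK1, both higher, were the 2 of the 36 genes called in P-SF against NP-SF (5.56%), where 4.05% of all genes tested were called, 3.17% higher and 0.882% lower. PFKP was at 23.1, 30.3, 32.5, 27.9 and 29.4 CPM in NP-SF and at 43.6, 40.3, 35.7, 34.7 and 55.8 CPM in P-SF. Every P-SF animal was above every NP-SF animal, and the log2 fold change was 0.56 ± 0.15 (edgeR adjusted p = 0.033, 0.011 to 0.16 over 17 alternatives). PGK1 was at 100, 105, 119, 83 and 114 CPM in NP-SF and at 131, 137, 126, 141 and 213 CPM in P-SF. The groups did not overlap, P-SF replicate 5 stood far above the rest, and the log2 fold change was 0.52 ± 0.14 (edgeR adjusted p = 0.031, 0.011 to 0.15 over 17 alternatives).

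Both SF calls depended on single animals. Without P-SF replicate 5 the log2 fold change of PFKP was 0.43 (edgeR adjusted p = 0.16) and that of PGK1 was 0.36 (0.15). PFKP and PGK1 were also lost without NP-SF replicate 1 (adjusted p 0.11 and 0.079), NP-SF replicate 2 (0.054 and 0.060) or NP-SF replicate 4 (0.074 and 0.099), and PFKP without P-SF replicate 1 (0.068). With the 10 SF libraries fitted alone neither was called (0.051 and 0.087).

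PFKM and PDK2 did not pass in SF but their groups did not overlap. PFKM was at 28.2, 23.2, 25.6, 20.1 and 19.9 CPM in NP-SF and at 18.9, 18.9, 19.7, 18.5 and 13.4 CPM in P-SF, all lower, with a log2 fold change of -0.38 ± 0.12 (edgeR adjusted p = 0.069, 0.033 to 0.24 over 17 alternatives). PDK2 was at 26.7, 27.8, 24, 23.6 and 22.9 CPM in NP-SF and at 20.3, 20.4, 22.7, 20.6 and 13.8 CPM in P-SF, with a log2 fold change of -0.35 ± 0.11 (edgeR adjusted p = 0.080, 0.036 to 0.25). With PFKP and PGK1 these made 4 of 36 genes without overlap (11.1%), against 5.57% of all genes tested. LDHA was at 30.1, 35.8, 31.2, 70.1 and 40.9 CPM in NP-SF and at 23.5, 30.7, 27.1, 33.7 and 44.3 CPM in P-SF. These groups overlapped, and the log2 fold change was -0.38 ± 0.23. LDHB gave -0.10 ± 0.08, with NP-SF at 125 to 161 CPM and P-SF at 133 to 147 CPM.

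All 10 genes called in HF had the same sign of log2 fold change in SF, in libraries that the 2 comparisons do not share. How often this held among all genes called in HF was not counted, so it is not shown to be particular to these genes. Whether the change with pregnancy differed between the fertility classes was tested directly as an interaction. None of the 36 genes passed in edgeR, DESeq2 or limma-voom, and 0.0051% of all genes tested (1 gene) did in edgeR. At an unadjusted p under 0.05 there was 1 of the 36 in edgeR, LDHB, with a difference in log2 fold change of 0.25 ± 0.12, SF minus HF. The largest differences in size were 0.48 ± 0.32 for LDHA and 0.42 ± 0.23 for ALDOC, both toward a smaller decrease in SF. Stromal marker sums were 11000 to 16300 CPM in NP-SF and 9810 to 12500 CPM in P-SF, and epithelial marker sums were 921 to 1440 CPM and 1300 to 1560 CPM. In P-SF against NP-SF the epithelial marker CDH1 (0.48 ± 0.14) and the immune marker AIF1 (0.93 ± 0.18) were called higher, with 7 of 8 epithelial and 6 of 6 immune markers positive, and no stromal, endothelial or smooth muscle marker was called. The part of the markers in these values was not tested.

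The lists outside the 36 gave fewer calls in SF, as did all genes tested, at 4.05% against 20.8% in HF. Of the 23 glycolytic and gluconeogenic genes 2 were called, both higher, among them PCK2 (0.96 ± 0.19). SDHAF2, an assembly factor of succinate dehydrogenase, was the 1 of 27 in the mitochondrial list (0.35 ± 0.09), MAX the 1 of 25 among hypoxia and MYC regulators (0.46 ± 0.11), and none of 8 pentose phosphate genes passed. A difference between HF and SF in these counts was not tested.

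Pregnant SF and pregnant HF endometrium were then compared directly. None of the 36 genes was called in edgeR, DESeq2 or limma-voom, where 0% of all genes tested were called in edgeR. At an unadjusted p under 0.05 there were 2 in edgeR, citrate synthase CS (-0.21 ± 0.09, SF minus HF on the log2 scale) and ALDOA (-0.21 ± 0.09). The widest difference was that of SLC16A1, -0.58 ± 0.33, with 25.0 CPM ± 11.1 (SD, n = 5) in P-SF and 37.7 CPM ± 17.5 in P-HF. With P-HF replicate 1 left out together with P-SF replicate 5, 2 genes were called lower in P-SF, CS at -0.34 (edgeR adjusted p = 0.020, 0.020 to 0.70 over 17 alternatives) and PGK1 at -0.43 (0.049, 0.049 to 0.87). In that fit 3.22% of all genes tested were called, against 0% with all libraries. Both libraries had been picked for lying near the other fertility class, so leaving them out widens the gap between the classes by choice. The 2 calls are therefore no independent support for a difference.

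In non-pregnant endometrium no gene of the 36 was called between fertility classes in edgeR, DESeq2 or limma-voom, and 0% of all genes tested were called in edgeR in each of the 3 comparisons. At an unadjusted p under 0.05 there were 0 of the 36 in NP-SF against NP-HF, 2 in NP-IF against NP-HF (ALDOC, -0.50 ± 0.16, and PFKM, -0.29 ± 0.12) and 1 in NP-IF against NP-SF (ALDOC, -0.36 ± 0.16). PFKM stood at 18, 22.1, 19.9, 22.6 and 17.1 CPM in the NP-IF animals, which overlaps the NP-HF range of 20.3 to 29.7 CPM. For NP-SF against NP-HF the log2 fold changes of the 36 ran from -0.44 ± 0.52 for HK2 to 0.39 ± 0.35 for PDK4. Groups of 5 leave an error of that size, so that moderate differences were not detectable for these 2 genes.

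Among conceptuses, 34 of the 36 genes had enough reads to be tested, and ENO2 and PDK4 did not. SF conceptuses differed from long HF conceptuses in 2 genes, with hexokinase HK1 lower and pyruvate kinase PKM higher. This was 5.88% of the 34, against 8.84% of the 16330 genes tested (3.76% higher and 5.08% lower). The median log2 fold change of the 34 was 0.12, and that of all genes tested was 0.03. The long group was also the longer one in cm, so that fertility class and conceptus length cannot be told apart here.

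HK1 ranged from 15.9 to 45.0 CPM with a median of 26.8 CPM in the 10 SF conceptuses, and from 23.0 to 111 CPM with a median of 58.7 CPM in the 10 long HF conceptuses. In the 7 short HF conceptuses it ranged from 13.6 to 97.7 CPM with a median of 47.3 CPM. The long and short groups spread over a wide range that takes in much of the SF values. SF against long HF gave a log2 fold change of -1.13 ± 0.36 (edgeR adjusted p = 0.048, 0.013 to 0.15 over 30 alternatives), and SF against short HF one of -0.88 ± 0.39 (edgeR adjusted p = 0.50, not called).

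PKM ranged from 1400 to 3130 CPM (median 2090) in SF, from 1400 to 2320 CPM (median 1780) in long HF and from 1440 to 2160 CPM (median 1620) in short HF. The groups overlapped, and 3 SF conceptuses (replicates 2, 3 and 4) lay above all others. The log2 fold change of SF against long HF was 0.39 ± 0.12 (edgeR adjusted p = 0.037, 0.014 to 0.17 over 30 alternatives). Between SF and long HF, 0 of the 34 genes had groups that did not overlap, against 0.0857% of all genes tested.

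Both conceptus calls depended on single libraries and on the treatment of shared recipients. HK1 and PKM were both lost without SF replicate 2 (adjusted p 0.092 and 0.084), 3 (0.077 and 0.087), 4 (0.074 and 0.071) or 10 (0.053 and 0.057), and without long HF replicate 2 (0.075 and 0.062), 5 (0.053 and 0.062), 6 (0.092 and 0.070), 8 (0.084 and 0.062) or 9 (0.097 and 0.072). HK1 alone was lost without SF replicate 1 (0.063), 6 (0.050), 7 (0.075) or 8 (0.058) and without long HF replicate 7 (0.057) or 10 (0.052), and PKM alone without long HF replicate 4 (0.061). With limma-voom and a correlation among conceptuses of 1 recipient, the adjusted p was 0.15 for HK1 and 0.080 for PKM. Within the first sample sheet alone, HK1 gave -1.10 (0.034) and PKM 0.42 (0.044). Without the sheet term PKM gave 0.29 (edgeR adjusted p = 0.17). PKM was also lost with conceptuses of 1 recipient summed (0.062), and HK1 with limma-voom alone (0.11). Without a low-count filter neither was called (0.081 for HK1 and 0.078 for PKM). Over the 30 alternatives PKM was called in 16, and HK1 was called in all but those named above. The sheets are not labelled as such but were inferred from the naming style of the sample descriptions, and the second holds no long HF conceptus. For 20 conceptus samples the description names another animal than the title, so the sheet is itself uncertain.

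Other genes leaned in this comparison without passing. SDHB, the iron-sulphur subunit of succinate dehydrogenase, gave 0.32 ± 0.11 (edgeR adjusted p = 0.069, 0.040 to 0.16 over 30 alternatives), with SF at 100 to 171 CPM and long HF at 91 to 131 CPM. OGDH, part of the oxoglutarate dehydrogenase complex, gave -0.27 ± 0.11, with 136 CPM ± 24.9 (SD, n = 10) in SF and 155 CPM ± 18.2 in long HF. PDK1 gave -0.70 ± 0.37, with SF at 8.95 to 43.6 CPM and long HF at 16.1 to 82.7 CPM. Over all genes tested 8.84% were called. The shares were 13.6% of 22 other glycolytic genes, 15.4% of 26 other mitochondrial genes and 8% of 25 hypoxia and MYC regulators. Of the 22 other glycolytic genes, PFKFB3 (1.56 ± 0.40) and BPGM (1.0 ± 0.29) were higher and MINPP1 (-0.43 ± 0.12) was lower in SF. Of 26 other mitochondrial genes, MPC2, a subunit of the mitochondrial pyruvate carrier (0.54 ± 0.11), and SDHD (0.43 ± 0.13) were higher, and IDH1 (-1.43 ± 0.39) and PDPR (-0.59 ± 0.18) were lower. None of 8 pentose phosphate genes and 2 of 25 hypoxia and MYC regulators passed, PPARGC1B (-0.66 ± 0.15) and MYCN (-0.82 ± 0.22), both lower in SF.

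Markers of lineages and cell types moved in the same comparison. Of 9 trophectoderm markers, GATA3 (-1.35 ± 0.27), GATA2 (-0.79 ± 0.21) and TFAP2C (-0.52 ± 0.14) were called lower in SF and 0 higher, while 5 of the 9 had a positive fold change and the median was 0.32. Their summed level was 12100 to 32000 CPM in SF and 9710 to 27100 CPM in long HF. Of 4 mesoderm markers HAND1 (-3.37 ± 0.79) was lower, with a median of 0.12, and of 6 endoderm markers GATA6 (-0.53 ± 0.16) was lower, with a median of -0.05. Of 8 stromal markers 4 were lower, COL1A1 (-1.69 ± 0.52), COL1A2 (-3.16 ± 0.95), DCN (-2.28 ± 0.71) and PDGFRB (-2.02 ± 0.45), with a median of -1.86 and summed levels of 3.44 to 106 CPM in SF and 6.25 to 72.7 CPM in long HF. Of 5 endothelial markers TIE1 (2.13 ± 0.54) was called higher, but 2 of the 5 had a positive fold change and the median was -0.3. The summed level of all 6 endothelial markers was 2.69 to 15.1 CPM in SF and 9.29 to 46.2 CPM in long HF. No epithelial, immune, smooth muscle, red blood cell or epiblast marker was called. The part of the markers in these results was not tested.

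**Figure D3:**
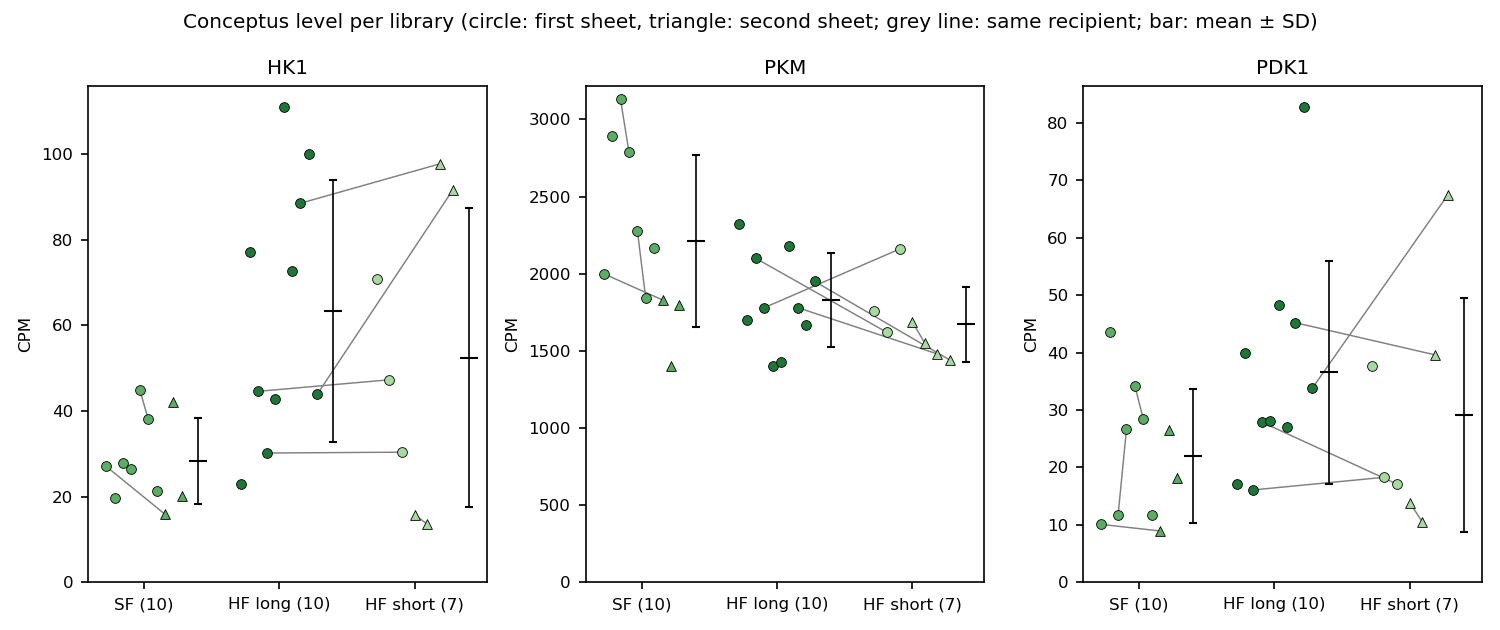
Level in CPM (vertical axis, from 0) of HK1, PKM and PDK1 in every conceptus, by group, with mean ± SD (n = 10, 10 and 7). Circles are libraries of the first sample sheet and triangles of the second, as inferred from the naming style of the descriptions. Grey lines join conceptuses of 1 recipient. HK1 lies at 15.9 to 45.0 CPM in SF and reaches 111 CPM in long HF, and its values mostly lie close together within 1 recipient. For PKM the median absolute log2 difference was 0.27 within and 0.31 between recipients.

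None of the 34 genes was called in SF against short HF or in short against long HF by edgeR, DESeq2 or limma-voom. In edgeR 0.00612% and 0% of all genes tested were called in these 2 comparisons, and 4 and 0 of the 34 had an unadjusted p under 0.05. The 4 were HK1, PKM (0.29 ± 0.13), SDHB (0.26 ± 0.12) and OGDH (-0.24 ± 0.11). Between short and long HF conceptuses the log2 fold changes ran from -0.30 ± 0.48 for PDK1 to 0.32 ± 0.24 for ENO1 and 0.32 ± 0.25 for IDH3A. These come from a fit with the sample sheet as a term, and the mean level of ENO1 was 940 CPM in short and 971 CPM in long conceptuses, opposite in sign to its fitted value.

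Along measured length, in the 20 conceptuses with a length, 35 of the 36 genes could be tested and none was called in edgeR, where 0% of all genes tested were called. limma-voom called 0 and DESeq2 1, SDHA. At an unadjusted p under 0.05 there were 4 in edgeR. SDHA, the flavoprotein of succinate dehydrogenase, had a slope of 0.20 ± 0.05 log2 units per doubling of length (edgeR adjusted p = 0.27, 0.0047 to 0.47 over 29 alternatives). The others were PGK1 (-0.28 ± 0.10), ALDOC (0.63 ± 0.25) and SLC16A1 (-0.19 ± 0.09).

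The 8 recipients with 2 conceptuses allow a description of how alike uterus mates were. Recipients are those of the sample titles, and the descriptions of 20 of the 27 conceptus samples name another animal. For HK1 the pairs stood at 27.1 and 15.9, 15.8 and 13.6, 27.8 and 26.5, 45.0 and 38.1, 47.3 and 44.6, 30.2 and 30.4, 88.5 and 97.7, and 43.9 and 91.5 CPM. HK1 spanned an 8.13-fold range over the 27 conceptuses. The last 4 pairs held 1 long and 1 short conceptus each, among them the pair at 88.5 and 97.7 CPM, with lengths of 17 and 2.8 cm. The median absolute log2 difference was 0.17 between mates and 0.95 between conceptuses of different recipients (343 pairs), a ratio of 0.178. Of the 16330 genes tested, 0.661% had a ratio that low.

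Other members with a low ratio were ALDOC (0.19 between mates and 0.77 between recipients), IDH3A (0.10 and 0.34), PDK1 (0.32 and 0.82) and LDHB (0.19 and 0.48). For PFKP mates were no closer (0.80 and 0.64). Over the 34 tested members the median ratio was 0.774, and mates were the closer for 31 (91.2%). Over all genes tested the median ratio was 0.744, and mates were the closer for 77.6%. Mates share a recipient and with it a fertility class, and often a sample sheet. Within the HF class HK1 pairs ranged from 15.8 and 13.6 CPM to 88.5 and 97.7 CPM, so that recipients of 1 class differed in level.

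**Figure D4:**
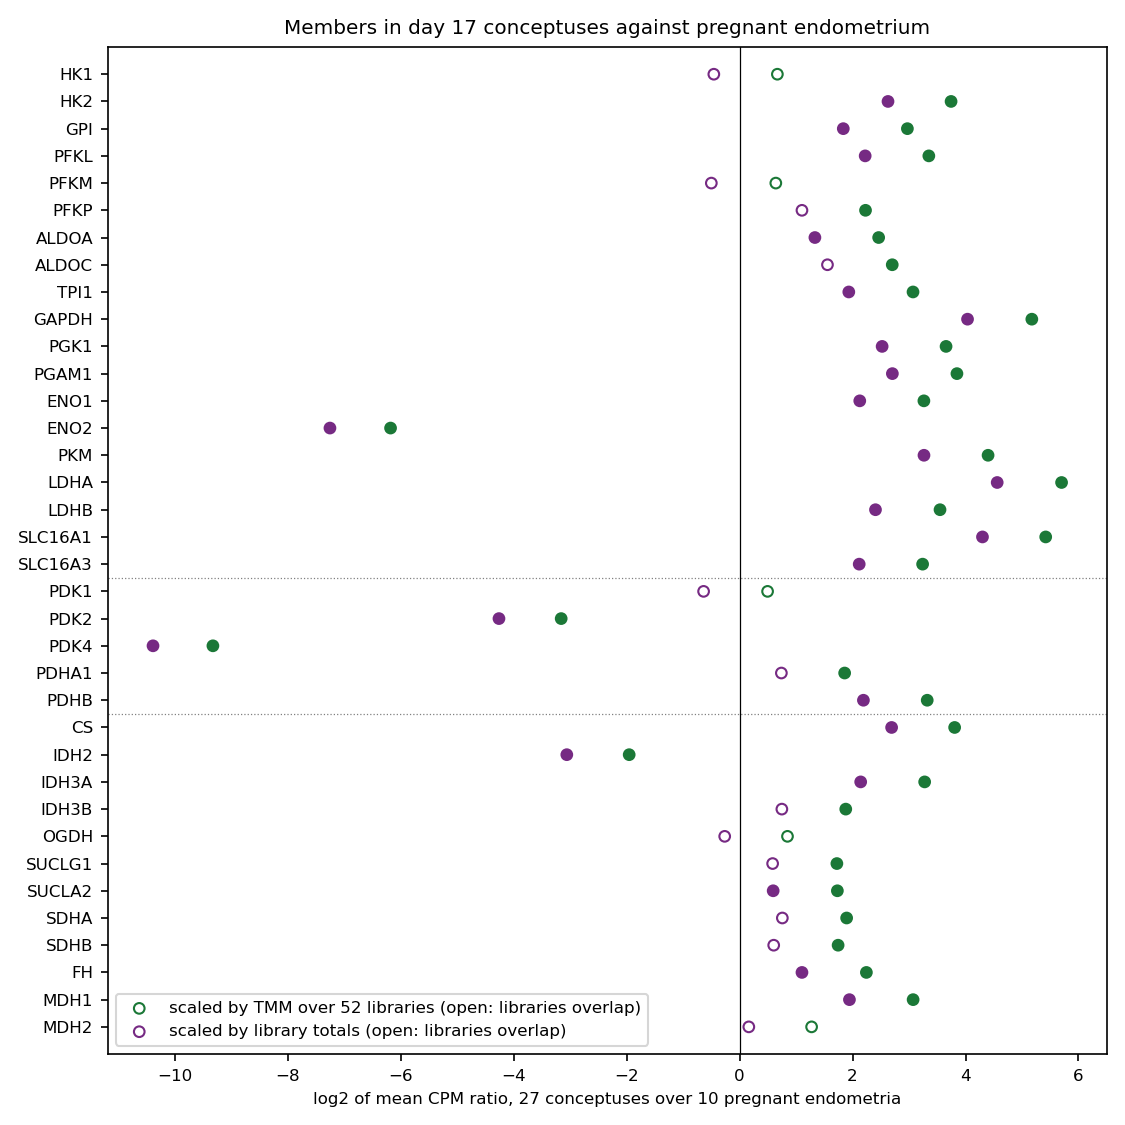
Log2 ratio of mean CPM (horizontal axis), 27 conceptuses over 10 pregnant endometria, for the 36 genes under TMM over all 52 libraries (green) and under library totals (purple), with open points where libraries of the tissues overlap. LDHA, SLC16A1, GAPDH and PKM lie far to the right under both, and PDK4, ENO2, PDK2 and IDH2 lie to the left under both.

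Day 17 conceptuses were last set against pregnant endometrium of the same day. Most of the glycolytic genes were higher in every conceptus, with LDHA, SLC16A1 and GAPDH at the front, and PDK4, ENO2, PDK2 and IDH2 were lower in every conceptus. Because tissue and RNA extraction reagent cannot be told apart, this is a description with no test. It also depends on scaling. The median log2 ratio over all genes was 0.15 with TMM over 52 libraries and -0.97 with library totals, and both are given below. With TMM, 27 of the 36 genes were higher in all 27 conceptuses than in all 10 pregnant endometria and 4 were lower. Over all genes 58.8% did not overlap between the groups, 31.1% higher and 27.7% lower. With library totals 20 of the 36 were higher and 4 lower, against 61.4% of all genes, 14.4% higher and 47% lower.

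RN7SL1 together with RMRP, a pair of non-coding RNAs, made up 1.5 to 8.55% of reads in each conceptus library and at most 0.00337% in each endometrial library. With both left out of the library sizes the TMM counts were again 27 and 4. Of the 10 pregnant endometria, 8 share an animal number with conceptuses (12 in all), as read from the titles. Set against the endometrium of their own recipient, as a mean where there were 2 conceptuses, 29 of the 36 genes were higher in all 8 recipients and 4 were lower in all 8 (TMM). This count was made neither over all genes nor by library totals, so it is not shown to be particular to the 36.

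Glycolysis and lactate handling made up most of the higher genes, with 16 of 19 by TMM and 14 of 19 by library totals. LDHA, at 14.2 to 29.0 CPM in pregnant endometrium and 511 to 2130 CPM in conceptuses (scaled over all 52 libraries), was 52-fold higher by TMM and 23.6-fold by totals. SLC16A1 was 42.8-fold and 19.7-fold higher, with 11.1 to 38.1 CPM in endometrium and 595 to 1270 CPM in conceptuses. GAPDH was 36.1-fold and 16.4-fold higher and PKM 21.1-fold and 9.61-fold. The lowest conceptus was far above the highest endometrium for each of these 4. HK2 (13.4-fold and 6.18-fold), PGK1 (12.6-fold and 5.75-fold) and PGAM1 (14.4-fold and 6.52-fold) were likewise without overlap.

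HK1 and PFKM did not follow. Their libraries overlapped between the tissues, and the direction turned with scaling: HK1 was 1.59 times the endometrial level by TMM and 0.729 times by totals, and PFKM 1.56 times and 0.707 times. PDK1 (1.41 and 0.643 times) and OGDH (1.80 and 0.833 times) turned in the same way. MDH2 overlapped too, at 2.42 and 1.12 times.

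The citric acid cycle genes stood closer together between the tissues, with a median log2 ratio of 1.81 by TMM and 0.68 by totals, against 3.26 and 2.13 for glycolysis and lactate handling. CS, which opens the cycle, was 14-fold and 6.46-fold higher in conceptuses. PDHB, a subunit of pyruvate dehydrogenase, was 10.0-fold and 4.57-fold higher. IDH2, the mitochondrial isocitrate dehydrogenase that makes NADPH, went the other way, at 62.1 to 104 CPM in pregnant endometrium and 9.54 to 43.6 CPM in conceptuses. IDH3A, a subunit of the NAD-dependent isocitrate dehydrogenase, was 9.69-fold and 4.42-fold higher in conceptuses.

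PDK4, a kinase of pyruvate dehydrogenase, gave the widest contrast. PDK4 had 3771 to 12069 reads in each pregnant endometrium. In conceptuses it had 0 to 69 reads per library and 219 reads in all 27 (95% Poisson interval 191 to 250, counting error only), with 7 libraries at 0. PDK4 was 642-fold lower in conceptuses by TMM and 1340-fold lower by totals. PDK2 had 9 to 57 reads per conceptus and 232 to 529 reads per pregnant endometrium, and was 8.91-fold and 19.2-fold lower. ENO2, the neuronal enolase, had 68 reads in all 27 conceptuses (52.8 to 86.2), with 12 libraries at 0, and 124 to 377 reads in each pregnant endometrium.

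Ratios of isoenzyme counts within a library are free of that scaling, although they compare 2 genes of unknown length and only their difference between tissues can be read. The log2 ratio of LDHA to LDHB was -2.29 ± 0.28 (SD, n = 10; range -2.63 to -1.67) in pregnant endometrium and -0.13 ± 0.63 (n = 27; range -1.40 to 1.04) in conceptuses, with no overlap. HK2 to HK1 was -2.57 ± 0.62 (range -3.41 to -1.77) and 0.83 ± 1.09 (range -1.06 to 2.47). SLC16A3 to SLC16A1 was -2.40 ± 0.69 and -4.67 ± 0.47. In words, the conceptus libraries held relatively more LDHA, HK2 and SLC16A1 than pregnant endometrium.

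Phosphofructokinase was weighted to PFKL in conceptuses. PFKM to PFKL was -1.82 ± 0.36 in pregnant endometrium and -4.60 ± 0.42 in conceptuses, and PFKP to PFKL was -0.39 ± 0.17 and -1.62 ± 0.65. PDK4 to PDK2 was 4.16 ± 0.66 and -3.01 ± 1.84 (with 0.5 reads added to each count), and PDK1 to PDK2 was 1.38 ± 0.25 and 4.84 ± 0.98. The ratio of ALDOC to ALDOA (-5.49 and -5.52) and that of the succinyl-CoA ligase subunits SUCLG1 to SUCLA2 (-0.08 and -0.08) were nearly the same in both tissues.

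**Figure D5:**
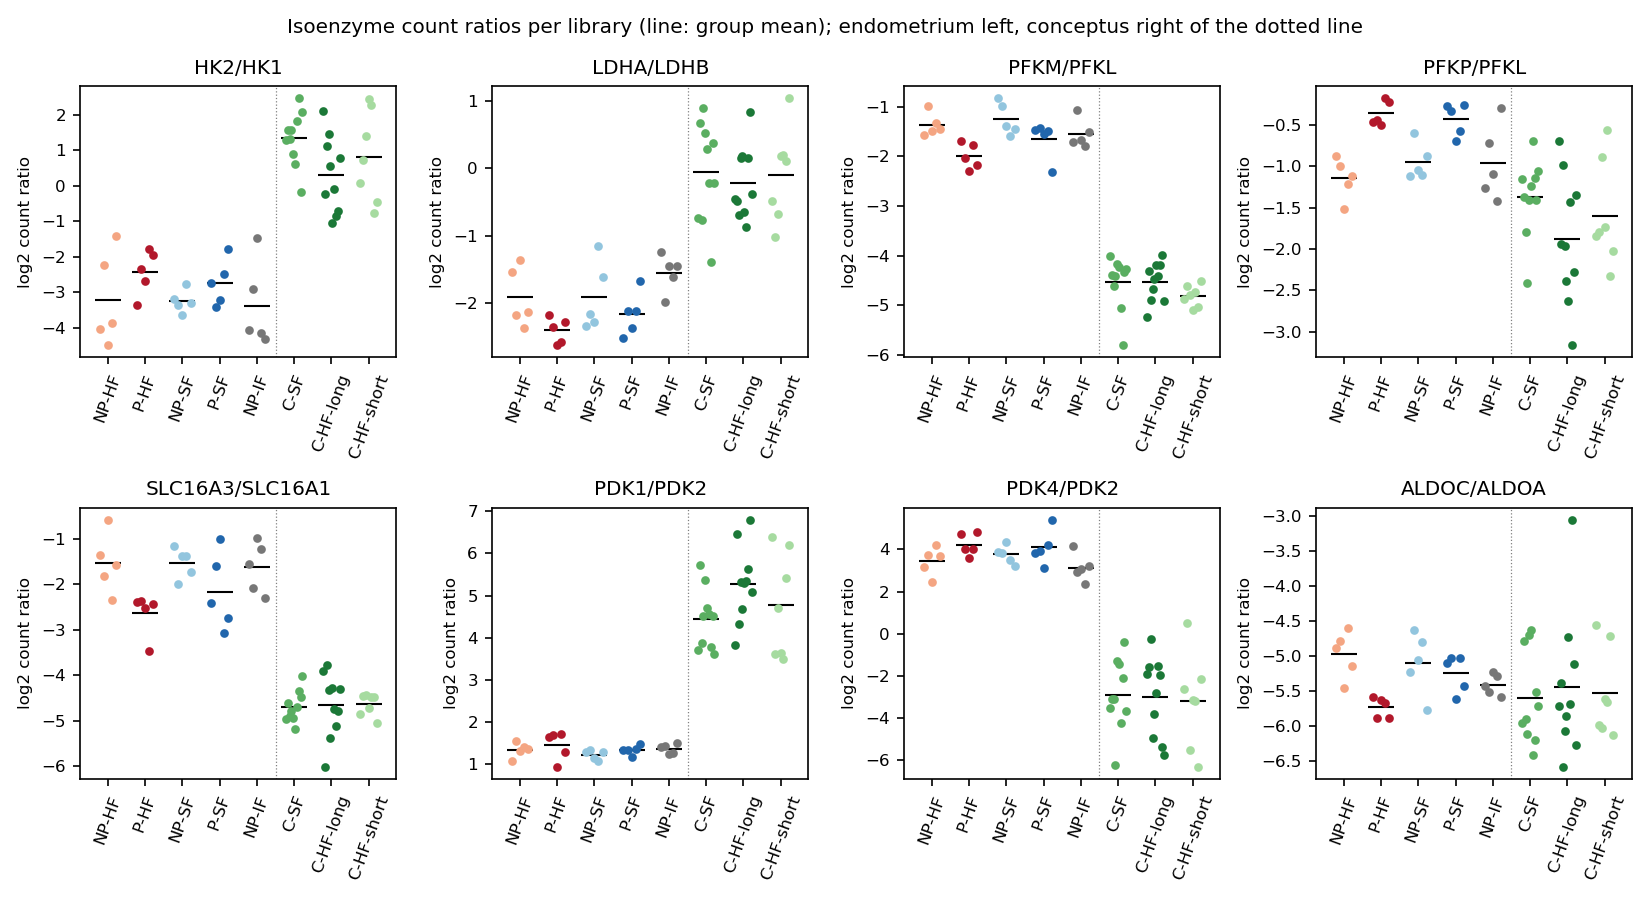
Log2 ratio of read counts of 2 isoenzymes (vertical axis), 1 point per library, lines at group means, with the 5 endometrial groups left and the 3 conceptus groups right of the dotted line. LDHA/LDHB, PFKM/PFKL, SLC16A3/SLC16A1, PDK1/PDK2 and PDK4/PDK2 do not overlap between pregnant endometrium and conceptuses, and ALDOC/ALDOA does.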

How the data were processed

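The deposited values are raw read counts, per the file headers: 31651 named genes by 52 libraries, with 1020 empty lines left out. Per the labels' protocols a strand-marking mRNA kit was used, with a different extraction reagent for endometrium and conceptus. HISAT2, StringTie, edgeR and the build UMD3.1 are named in the submitters' processing notes. Settings and strand use in counting are not stated there. The gene table at hand was of another assembly, so no coordinates or sequences are printed.

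Columns were matched to samples by title, since the descriptions of 20 conceptus samples name another animal than the title. Recipients were taken from the titles as well. For conceptuses the sample sheet was taken from the naming style of the description. That is the field in conflict with the titles, so the sheet could be misassigned for those samples. filterByExpr (minimum count 10, minimum total 15) removed genes of low count, and TMM scaled the libraries. All 25 endometrium libraries (19606 genes) and all 27 conceptus libraries (16330 genes, with the sheet as a term) were each fitted together with edgeR's quasi-likelihood test and Benjamini-Hochberg adjustment over all genes, called at 0.05. The slope used 20 conceptuses (16456 genes). An SE was derived from a fold change and its test statistic. CPM is scaled within a tissue unless stated. Every library is a separate animal in endometrium and a separate conceptus otherwise. Intervals cover counting error only.

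Every called gene of the 36 is named, with per-animal values for the called genes; listed pathway genes are counted whole, with up to 4 called examples by smallest adjusted p. Results for some listed genes are not reported here by name. Genes named beyond that rule were chosen after their values were seen. The members and lists were chosen with earlier results of these data known. The test steps were checked on simulated data. For P-HF against NP-HF they recovered 68% of 2-fold and 36% of 1.5-fold changes. For SF against long HF conceptuses they recovered 53% and 15%. Genes not called can therefore still differ by such amounts. False calls were 2 of 106 calls for P-HF against NP-HF and 8 of 76 calls for SF against long HF. The simulated libraries were drawn independently, so conceptuses sharing a recipient were not part of this check. Alternatives were RLE size factors, DESeq2, limma-voom, other low-count filters, fewer groups, leaving out libraries, the sheet and the recipients. R 4.3.3 was used with DESeq2 1.42.0, limma 3.58.1 and edgeR 4.0.16.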

Additional observations from a re-analysis of the deposited data

Results flagged for a closer look

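In 20 of 288 sets of values (1 gene in 1 group of 5 to 10 libraries) 1 library lay far from the others of its group by Dixon's criterion, where chance alone gives about 1 in 20, or 14.4. P-SF replicate 5 gave 6 of the 20: PFKM at 13.4 CPM (others 18.5 to 19.7), PDK1 at 37.9 CPM (others 50.3 to 52) and PDK2 at 13.8 CPM (others 20.3 to 22.7) were low, and GAPDH at 206 CPM (others 130 to 147), PGK1 at 213 CPM (others 126 to 141) and CS at 67.3 CPM (others 53.2 to 55.2) were high. The same library had the highest summed smooth muscle markers of P-SF, 727 CPM against a group median of 433 CPM. It was also the highest of P-SF in summed epithelial (1560 CPM) and immune markers (172 CPM) and the lowest in summed stromal (9810 CPM) and endothelial markers (465 CPM). The part of these in its values was not tested.

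Among the other endometrial libraries, ALDOC was high in P-HF replicate 3 at 6.28 CPM (others 4.31 to 4.79) and low in P-SF replicate 3 at 4.89 CPM (others 5.98 to 6.47). LDHB was low in NP-SF replicate 5 at 125 CPM (others 152 to 161), and SDHA was high in NP-SF replicate 3 at 130 CPM (others up to 109). In NP-IF, SLC16A3 was low in replicate 2 at 3.12 CPM (others 5.27 to 6.41), PDHA1 was high in replicate 2 at 122 CPM (the others at about 108), and ENO2 was high in replicate 5 at 15.7 CPM (others 12.3 to 12.8).

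Among conceptuses, ALDOC was at 76.3 CPM in long HF replicate 8 (others 5.55 to 21.7), MDH2 at 286 CPM in short HF replicate 7 (others 111 to 140) and IDH2 at 20.6 CPM in long HF replicate 3 (others 10.3 to 14.9). HK2 was low in SF replicate 9 at 37.8 CPM (others 58.3 to 88.0). PDK4, near 0 in conceptuses, reached 0.882 CPM in SF replicate 9 (others up to 0.386), 0.672 CPM in long HF replicate 3 (others up to 0.309) and 2.13 CPM in short HF replicate 2 (others up to 0.186).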

How the results depend on the processing

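Of the 28 fold changes of single genes that were called in at least 1 fit, none changed sign under the alternatives run, and fold changes never called were not followed in this way. Leaving out each library in turn gave 6 to 14 called genes for P-HF against NP-HF (10 in the reported fit), 0 to 3 for P-SF against NP-SF (2), 0 to 3 for SF against long HF (2), and 0 for every other comparison, the interaction and the slope on length included. With P-HF replicate 1 left out together with P-SF replicate 5, the counts were 15 for P-HF against NP-HF, where 23.5% of all genes were called, 0 for P-SF against NP-SF (2.56%) and 2 for P-SF against P-HF (3.22%). The last count is not independent of how these libraries were picked, namely for lying near the other fertility class. With only the groups compared in the fit the counts were 6 for P-HF against NP-HF and 0 for P-SF against NP-SF, and DESeq2 called 4 in the latter. For SF against long HF the count was 1 with limma-voom, 1 without the sheet term, 1 with conceptuses of 1 recipient summed, 0 without a low-count filter and 0 with limma-voom and a recipient correlation. For the slope on length it was 1 with DESeq2 and 3 without the sheet term. The cause of these changes was not tested. For the conceptuses, the replicate block (the recipient as a term, 4 pairs of 1 long and 1 short conceptus) left 0 genes called in short against long HF. Among the endometrial groups, no paired analysis was possible because every library is another animal and the labels give these groups no shared numbers. Depth limits ENO2, PDK2 and PDK4 in conceptuses alone.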
